A study of Mus musculus with 25 samples.

Results

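The 37 genes described here drive or mark cell division. They were chosen as a named set of cyclins, replication factors and mitotic proteins, and a gene was kept where its mean over all animals was at least 3. All 37 of the 37 named genes passed that minimum with 1 row each, among 47069 rows of the deposited table and 19141 rows that passed the same minimum. They were measured by sequencing of polyadenylated RNA from whole pituitaries of 25 hypogonadal (hpg/hpg) mice, which lack gonadotropin-releasing hormone (GnRH) because part of its gene is deleted. All 4 groups share this genotype: 5 placebo females (animals 1 to 5), 6 GnRH females (6 to 11), 6 placebo males (12 to 17) and 8 GnRH males (18 to 25). Treated animals were given GnRH at 1 µg by intraperitoneal injection, the placebo animals saline, once a day for 10 days, and the tissue was taken 1 h after the last dose. The animals' ages were not given in the sources used here, and no group with intact GnRH was analysed here. Values are regularized-log (rlog) values on the log2 scale, and each adjusted p comes from limma with the Benjamini-Hochberg correction across the 19141 rows.

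Progress through the cell cycle is ordered by cyclins and their kinases. D-type cyclins act early in G1, E-type cyclins at entry into DNA synthesis, and A- and B-type cyclins with CDK1 in mitosis. E2F transcription factors switch on the genes of DNA replication, and FOXM1 acts later on the genes of the mitotic spindle and kinetochore. In the adult pituitary few cells divide, so that in RNA from whole tissue these transcripts report on a small share of the cells, while D-type cyclins are also made by cells that do not divide. In bulk tissue, fewer cells of a type and less RNA per cell cannot be told apart.

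Many late cell cycle genes carry both the CHR (TTTGAA or TTCGAA) and the CCAAT box in their promoters, and replication genes often carry E2F letters (TTTGGCGC, TTTCCCGC, TTTGGCGG, TTTCGCGC, TTTCCCGG or TTTGCCGC). These were searched on both strands from 250 bases before to 50 bases after the RefSeq start site, in the table of build GRCm38.p6, which held 29 of the 37 genes. Of the 16 mitotic genes in it, 12 (75%) had a CHR, 14 (87.5%) a CCAAT box and 12 (75%) both, against 21.7%, 41.1% and 9.65% of all 27025 genes of the table. Of the 10 replication genes, 2 (20%) had a CHR, 8 (80%) a CCAAT box and 4 (40%) E2F letters, against 4.55% of all genes for the last. The 120 bases before the start site are printed, 5′ to 3′ on the gene's strand, for 4 mitotic genes that varied closely together between animals and for 3 replication genes, of which Mcm3 varied with them and Mcm6 and Rrm1 did not. Capitals mark the motifs, and ATTGG and TTCAAA are CCAAT and TTTGAA on the opposite strand.
Mki67 (chr7:135716380-135716499, minus strand): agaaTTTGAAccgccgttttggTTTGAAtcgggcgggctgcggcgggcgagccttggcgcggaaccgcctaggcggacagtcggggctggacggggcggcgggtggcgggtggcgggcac
Top2a (chr11:99024190-99024309, minus strand): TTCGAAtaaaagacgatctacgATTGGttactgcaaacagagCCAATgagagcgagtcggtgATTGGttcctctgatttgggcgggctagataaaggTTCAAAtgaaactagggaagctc
Kif11 (chr19:37376262-37376381, plus strand): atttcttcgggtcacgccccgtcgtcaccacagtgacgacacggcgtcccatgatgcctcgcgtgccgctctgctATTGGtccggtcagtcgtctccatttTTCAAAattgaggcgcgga
Ccnb2 (chr9:70421555-70421674, minus strand): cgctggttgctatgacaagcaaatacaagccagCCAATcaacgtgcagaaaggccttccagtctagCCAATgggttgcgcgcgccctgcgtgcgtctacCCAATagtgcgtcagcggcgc
Mcm3 (chr1:20820313-20820432, minus strand): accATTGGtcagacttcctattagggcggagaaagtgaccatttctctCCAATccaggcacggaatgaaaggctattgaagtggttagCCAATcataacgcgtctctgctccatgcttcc
Mcm6 (chr1:128359706-128359825, minus strand): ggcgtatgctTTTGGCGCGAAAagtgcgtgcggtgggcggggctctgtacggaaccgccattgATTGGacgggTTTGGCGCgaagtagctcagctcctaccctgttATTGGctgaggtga
Rrm1 (chr7:102441575-102441694, plus strand): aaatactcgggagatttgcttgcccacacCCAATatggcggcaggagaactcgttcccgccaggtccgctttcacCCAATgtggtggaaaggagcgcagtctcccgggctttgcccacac
In the Top2a stretch the last of 3 CCAAT boxes began 58 bases and the last of 2 CHRs 23 bases before the start, and in Kif11 the single CCAAT box and CHR began at 45 and 19 bases. Mki67 had CHR letters 116 and 98 bases before the start, and Ccnb2 had 3 CCAAT boxes, at 87, 54 and 21 bases. Mcm6 had E2F letters and 2 CCAAT boxes in this stretch, Mcm3 had 3 CCAAT boxes and Rrm1 had 2, with no CHR in any of these 3 stretches. Outside the printed stretches, Mcm3 had E2F letters 19 and 38 bases after the start. Mki67 had CCAAT boxes 188, 166 and 141 bases before it, and Ccnb2 had CHR letters 167 bases before and 4 bases after it. Promoters of Mcm4, Foxm1, Aurkb, Ccne2, Ccnd1, Ccnd2, Tpx2 and Ccna2 were not used here, and a match is a description of letters, not of binding.

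Library medians lay between 8.09 and 8.13 and correlations between any pair of libraries between 0.992 and 0.998, and the sex-linked genes Xist and Ddx3y fitted the labelled sex in all 25 animals. Hormone transcripts of the pituitary stood among the highest values (Gh at a mean of 21.5, Pomc at 18.5, Prl at 17.4), and all 44 markers of 12 pituitary and other cell types passed the minimum. GnRH raised Fshb, the follicle-stimulating hormone subunit gene of gonadotropes, by 2.07 in females (SE 0.27, adjusted p = 0.000347) and by 2.77 in males (SE 0.24, adjusted p = 1.52e-07). Animal 6, a GnRH female, stood apart for the cell cycle genes: it had the highest value of all 25 animals for 21 of the 37 members. Animal 14 was the highest of the placebo males for 25 of them.

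None of the 37 members passed an adjusted p of 0.05 for GnRH in either sex. In females 0 of 37 passed by limma, against 0.0993% of all rows tested, and 1 of 37 had an unadjusted p under 0.05, against 9.57% of all rows. In males 0 of 37 passed, against 0.496% of all rows, and again 1 of 37 had an unadjusted p under 0.05, against 6.42%. No member had treated and placebo animals that did not overlap, in either sex (0 of 37 against 0.768% of all rows in females and 0.402% in males). On the rlog scale of the whole tissue, the 95% interval of the GnRH difference lay within 0.5 of 0 for 34 of 37 members in females and 35 of 37 in males. Mki67 and Pttg1 had intervals past that bound in both sexes, and Top2a in females. The rlog step understates differences of genes with few reads, so larger changes of such members are not bounded by these intervals. Nor is a larger change in a small share of the cells.

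**Figure D1:**
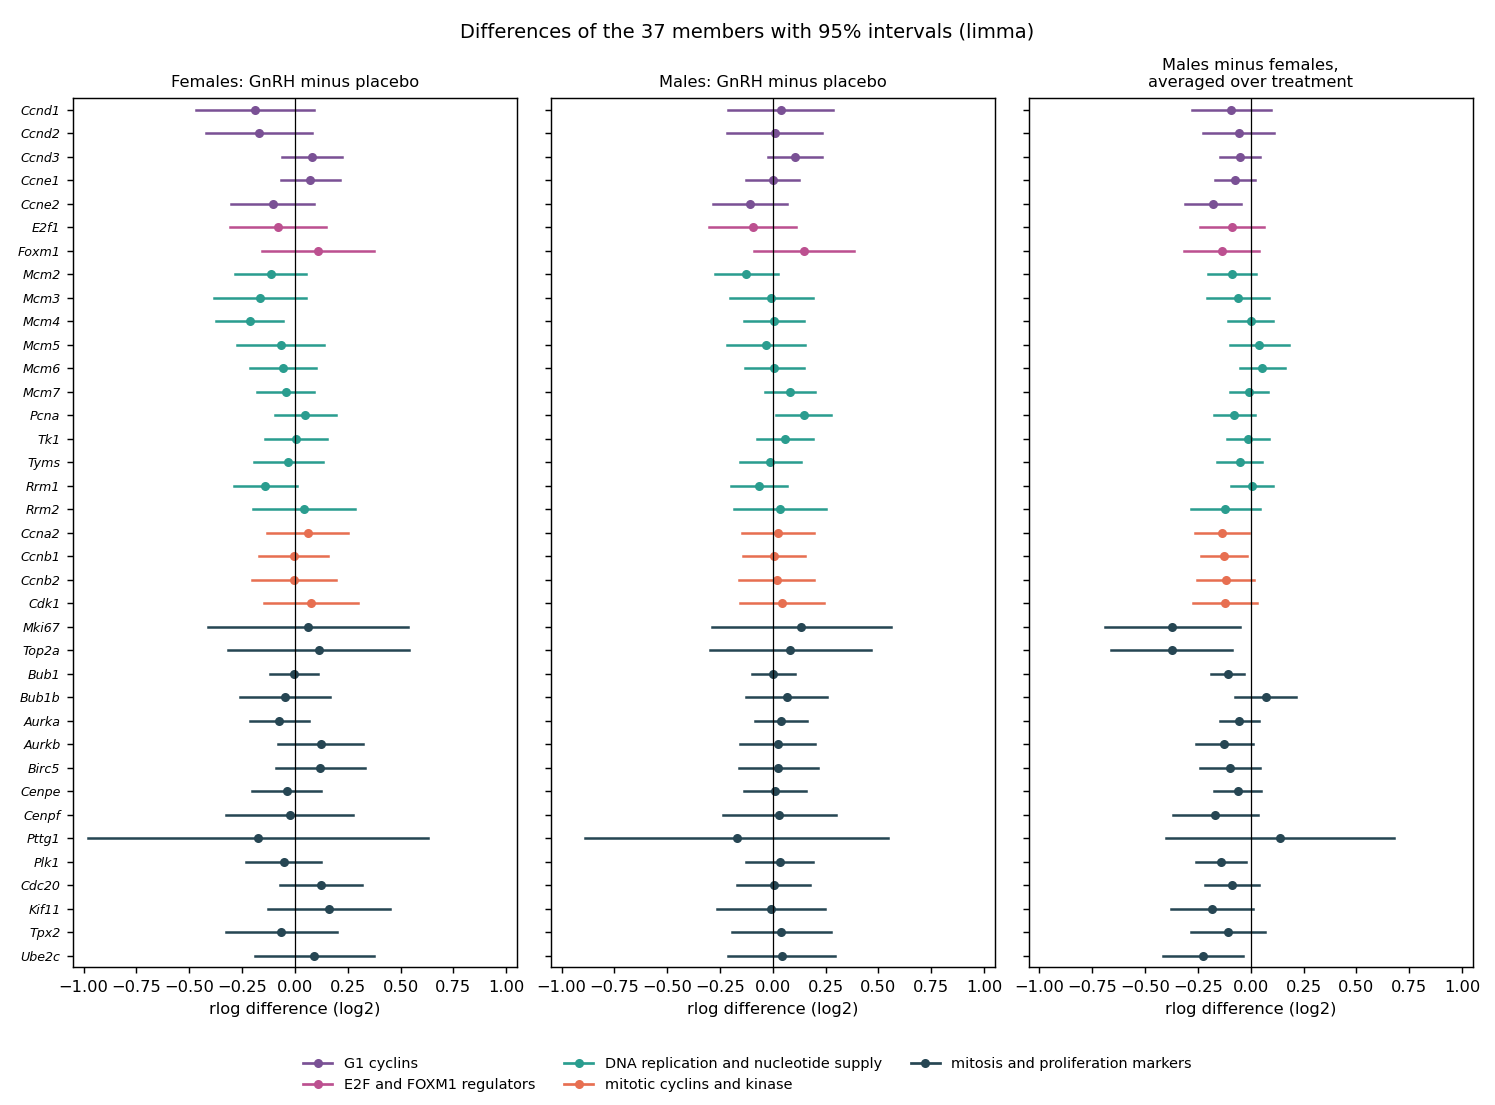
Differences of the 37 members on the rlog (log2) scale, with points for limma estimates and lines for 95% intervals, colored by role. The left and middle panels give GnRH minus placebo in females and in males, where 36 of 37 intervals cross 0 in each sex, and the right panel gives males minus females averaged over treatment, where 32 of 37 points lie below 0.

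The order of the members' levels was read per length, since longer transcripts give more reads. The length joined all annotated exons of a gene (GENCODE vM21), so the order depends on that annotation. On the rlog value minus log2 of this length in kilobases, Ccnd2 stood highest at 9.56, followed by Ccnd1 at 8.67. Next came Pcna at 8.12, Ccnd3 at 7.94 and Mcm4 at 7.01. Mitotic genes made up the lower end, with Bub1 lowest at 1.25, Cenpf at 1.88, Ccnb1 at 2.20, Cenpe at 2.46 and Cdk1 at 2.89. Pttg1, at 5.98, was the highest mitotic gene and ranked 8 of 37, followed by Bub1b (4.90, rank 14) and Cdc20 (4.61, rank 18). Some neighbours in this order did not differ beyond the spread between animals: Tk1 (5.24) and Mcm5 (5.23), which ranked 11 and 12, lay closer together than the within-group SD of Tk1 (0.11), and Foxm1 and Ccnb2 had the same per-length level to 2 decimals (4.12). Mcm4 and Mcm7 (6.67), with within-group SDs of 0.13 and 0.10, lay farther apart per length than either. Before the length was taken off, their means of 8.86 and 8.82 lay closer together than either SD. Deposited rlog values pull genes with few reads towards their mean, so the spread of the lowest members is understated.

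Among the G1 cyclins, Ccnd1 and Ccnd2, partners of CDK4 and CDK6 in early G1, had negative differences in GnRH females. Ccnd1 stood at 11.32, 10.72, 11.03, 11.21 and 10.96 in placebo females, at 10.54, 10.72 and 11.36 (lowest, median and highest) in GnRH females, at 10.44, 10.95 and 11.16 in placebo males and at 10.71, 10.89 and 11.03 in GnRH males. Ccnd2 stood at 13.18, 12.67, 12.92, 12.96 and 12.85 in placebo females, at 12.48, 12.57 and 13.24 (lowest, median and highest) in GnRH females, at 12.45, 12.84 and 12.98 in placebo males and at 12.59, 12.77 and 12.99 in GnRH males. Animals 9 and 1 were the highest of the 25 for both cyclins, and the groups overlapped throughout. The GnRH difference of Ccnd1 was -0.19 (SE 0.14, 95% interval -0.47 to 0.09, adjusted p = 0.667) in females and 0.038 (95% interval -0.21 to 0.29, adjusted p = 0.999) in males. For Ccnd2 it was -0.17 (95% interval -0.42 to 0.08, adjusted p = 0.666) in females and 0.0083 (95% interval -0.21 to 0.23, adjusted p = 0.999) in males.

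Ccnd3, the third D-type cyclin, stood at 10.93, 11.22, 10.97, 11.08 and 11.09 in placebo females, at 10.98, 11.16 and 11.25 (lowest, median and highest) in GnRH females, at 10.83, 10.95 and 11.26 in placebo males and at 10.97, 11.11 and 11.20 in GnRH males. Its placebo males held both the highest value of the 25 (animal 16) and the 3 lowest (animals 12, 13 and 14). The GnRH difference was 0.081 (95% interval -0.062 to 0.22, adjusted p = 0.725) in females and 0.11 (95% interval -0.021 to 0.23, adjusted p = 0.878) in males, where 7 of 8 treated animals lay above the placebo mean. Ccne1, which with CDK2 starts DNA synthesis, stood at 6.04, 5.89, 6.04, 5.88 and 5.99 in placebo females, at 5.95, 6.01 and 6.26 (lowest, median and highest) in GnRH females, at 5.80, 5.95 and 6.05 in placebo males and at 5.71, 6.00 and 6.06 in GnRH males. Animal 6 lay above the other 24 animals for it, and the differences were 0.072 in females and 0.00028 in males. Ccne2 stood at 7.04, 6.66, 6.83, 6.55 and 6.89 in placebo females, at 6.51, 6.72 and 6.79 (lowest, median and highest) in GnRH females, at 6.48, 6.57 and 6.95 in placebo males and at 6.31, 6.47 and 6.85 in GnRH males. Its highest value was in placebo female 1, its 4 lowest were in GnRH males, and the GnRH differences were -0.10 (95% interval -0.30 to 0.092, adjusted p = 0.738) in females and -0.11 (95% interval -0.28 to 0.066, adjusted p = 0.999) in males. In GnRH females, 0 of 6 animals lay above the placebo mean of Ccne2, although the ranges overlapped.

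None of the GnRH differences of the regulators E2f1 and Foxm1 passed. E2f1 stood at 6.81, 6.36, 6.80, 6.52 and 6.24 in placebo females, at 6.27, 6.43 and 6.72 (lowest, median and highest) in GnRH females, at 6.34, 6.43 and 6.66 in placebo males and at 6.16, 6.33 and 6.68 in GnRH males. Foxm1 stood at 6.94, 6.65, 6.79, 6.47 and 6.42 in placebo females, at 6.55, 6.60 and 7.41 (lowest, median and highest) in GnRH females, at 6.30, 6.46 and 6.83 in placebo males and at 6.44, 6.66 and 6.85 in GnRH males. Animal 6 was the highest for Foxm1, followed by animal 1 at 6.94. The GnRH difference of E2f1 was -0.081 (95% interval -0.31 to 0.15, adjusted p = 0.835) in females and -0.10 (95% interval -0.30 to 0.11, adjusted p = 0.999) in males, and that of Foxm1 was 0.11 (95% interval -0.16 to 0.37, adjusted p = 0.805) in females and 0.15 (95% interval -0.088 to 0.38, adjusted p = 0.999) in males. The female difference of Foxm1 was -0.020 without animal 6, the sign of E2f1, which then stood at -0.13.

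The replication group held the smallest p of the members in each sex, with different genes and opposite signs. It comprises the 6 subunits of the MCM helicase that unwinds DNA at the fork, the sliding clamp Pcna, and the enzymes of nucleotide supply Tk1, Tyms, Rrm1 and Rrm2. In females 8 of the 11 genes had a negative GnRH difference, with a median of -0.058. In males 5 of 11 were negative, with a median of 0.004.

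Mcm4 had the smallest p in females. It stood at 9.04, 8.82, 9.03, 9.08 and 8.88 in placebo females, at 8.58, 8.76 and 8.93 (lowest, median and highest) in GnRH females, at 8.73, 8.83 and 9.03 in placebo males and at 8.68, 8.83 and 9.01 in GnRH males. All 6 GnRH females lay below the placebo mean, but animals 6 and 8, at 8.87 and 8.93, lay above the lowest placebo female, so that the groups overlapped. The difference was -0.21 (SE 0.077, 95% interval -0.37 to -0.056, adjusted p = 0.362), a fold of 0.862 on the rlog scale. In males it was 0.004 (95% interval -0.14 to 0.15, adjusted p = 0.999). The difference between these 2 effects was 0.22 (SE 0.10, 95% interval 0.0065 to 0.43, adjusted p = 0.999). Its adjusted p in females ranged from 0.136 with array weights to 0.625 without placebo female 4, over the alternatives tried.

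Mcm2 and Mcm3 were also lower in most GnRH females. Mcm2 stood at 8.86, 8.61, 8.82, 8.64 and 8.54 in placebo females, at 8.45, 8.54 and 8.89 (lowest, median and highest) in GnRH females, at 8.47, 8.61 and 8.72 in placebo males and at 8.30, 8.48 and 8.74 in GnRH males. Mcm3 stood at 7.17, 7.02, 7.34, 7.06 and 7.01 in placebo females, at 6.73, 6.85 and 7.52 (lowest, median and highest) in GnRH females, at 6.85, 6.98 and 7.17 in placebo males and at 6.73, 7.02 and 7.13 in GnRH males. Animal 6 was the highest of all 25 for both genes, while the other 5 GnRH females all lay below the placebo mean. The differences were -0.11 (95% interval -0.28 to 0.054, adjusted p = 0.667) for Mcm2 and -0.17 (95% interval -0.39 to 0.052, adjusted p = 0.623) for Mcm3 in females, and -0.13 (95% interval -0.28 to 0.024, adjusted p = 0.874) and -0.0064 (95% interval -0.20 to 0.19, adjusted p = 0.999) in males. In females these were -0.18 and -0.28 without animal 6. Mcm7 stood at 8.95, 8.65, 8.84, 8.95 and 8.83 in placebo females, at 8.70, 8.78 and 8.93 (lowest, median and highest) in GnRH females, at 8.64, 8.81 and 8.88 in placebo males and at 8.75, 8.84 and 9.04 in GnRH males. Its highest values were in GnRH males 19 and 18, with differences of -0.044 in females and 0.08 (95% interval -0.039 to 0.20, adjusted p = 0.988) in males. Mcm5 and Mcm6 gave -0.068 and -0.058 in females and -0.032 and 0.0067 in males, and their values over all animals ran from 6.92 to 7.61 and from 8.12 to 8.60.

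Pcna had the smallest p in males. It stood at 9.55, 9.38, 9.49, 9.33 and 9.26 in placebo females, at 9.30, 9.40 and 9.75 (lowest, median and highest) in GnRH females, at 9.19, 9.27 and 9.40 in placebo males and at 9.29, 9.42 and 9.55 in GnRH males. All 8 GnRH males lay above the mean of the placebo males, although the 3 lowest of them, at 9.29, 9.31 and 9.37, fell inside the placebo range. The difference was 0.15 (SE 0.063, 95% interval 0.017 to 0.27, adjusted p = 0.643), a fold of 1.11 on the rlog scale. In females it was 0.048 (95% interval -0.10 to 0.19, adjusted p = 0.845), and without animal 6 it was -0.012. The adjusted p in males lay between 0.228 and 0.971 over the alternatives tried.

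Rrm1, the large subunit of ribonucleotide reductase, had the second smallest p in females. It stood at 9.15, 8.97, 9.18, 9.02 and 9.14 in placebo females, at 8.81, 8.94 and 9.18 (lowest, median and highest) in GnRH females, at 8.84, 9.12 and 9.22 in placebo males and at 8.86, 9.01 and 9.10 in GnRH males. Placebo males held its 2 highest values (animals 13 and 12) and GnRH females its 2 lowest (10 and 7). The GnRH difference was -0.14 (SE 0.072, 95% interval -0.29 to 0.0075, adjusted p = 0.547) in females and -0.065 (95% interval -0.20 to 0.067, adjusted p = 0.999) in males. Rrm2, the small subunit of the same enzyme, had differences of 0.042 and 0.034, Tk1 (thymidine kinase) 0.0049 and 0.057, and Tyms (thymidylate synthase) -0.031 and -0.011 in females and males. Leaving out animal 6, the female differences of Rrm2 and Tk1 were -0.043 and -0.057.

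None of the mitotic cyclins, nor their kinase, passed the test for GnRH. Ccna2 stood at 6.75, 6.46, 6.65, 6.27 and 6.43 in placebo females, at 6.45, 6.54 and 6.85 (lowest, median and highest) in GnRH females, at 6.21, 6.35 and 6.73 in placebo males and at 6.24, 6.41 and 6.61 in GnRH males. Ccnb1 stood at 4.45, 4.46, 4.36, 4.25 and 4.25 in placebo females, at 4.09, 4.32 and 4.65 (lowest, median and highest) in GnRH females, at 4.08, 4.17 and 4.60 in placebo males and at 4.12, 4.22 and 4.29 in GnRH males. Ccnb2 stood at 4.96, 4.83, 4.97, 4.68 and 4.57 in placebo females, at 4.63, 4.73 and 5.22 (lowest, median and highest) in GnRH females, at 4.53, 4.64 and 4.92 in placebo males and at 4.52, 4.67 and 5.04 in GnRH males. For all 3 cyclins animal 6 was the highest of the 25, and the second highest were placebo female 1, placebo male 14 and GnRH male 24. Cdk1, the kinase that B-type cyclins activate at entry into mitosis, ran from 4.96 to 5.78 over the 25 animals, again with animal 6 highest. The GnRH differences of these 4 genes lay between -0.0064 and 0.074 in females and between 0.0068 and 0.045 in males. The difference of Cdk1 was 0.074 (95% interval -0.15 to 0.30, adjusted p = 0.847) in females and 0.045 (95% interval -0.15 to 0.24, adjusted p = 0.999) in males. Without animal 6 the female differences were -0.022 for Cdk1, 0.0047 for Ccna2, -0.067 for Ccnb1 and -0.091 for Ccnb2.

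Mki67 (at chr7:135689784-135716361 in GRCm38), whose protein Ki-67 marks dividing cells, had one of the widest spreads in the table. It stood at 8.54, 8.02, 8.20, 7.43 and 7.57 in placebo females, at 7.48, 7.92 and 9.04 (lowest, median and highest) in GnRH females, at 7.24, 7.42 and 8.22 in placebo males and at 7.29, 7.74 and 8.15 in GnRH males. Animal 6, at 9.04, was followed by placebo female 1 at 8.54 and placebo male 14 at 8.22, and the lowest value, 7.24, was in placebo male 16. The GnRH difference was 0.062 (SE 0.23, 95% interval -0.41 to 0.54, adjusted p = 0.946) in females and 0.13 (SE 0.21, 95% interval -0.29 to 0.56, adjusted p = 0.999) in males. Without animal 6 the female difference was -0.14, and without animal 14 the male difference was 0.27. A difference on the rlog scale of up to 0.54 in females and 0.56 in males thus lay within the intervals.

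Top2a, topoisomerase II alpha, which untangles DNA before chromosomes separate, followed Mki67. It stood at 7.56, 7.04, 7.27, 6.59 and 6.61 in placebo females, at 6.61, 7.01 and 7.91 (lowest, median and highest) in GnRH females, at 6.30, 6.52 and 7.31 in placebo males and at 6.36, 6.75 and 7.18 in GnRH males. The order of its 4 highest animals (6, 1, 14 and 7) was the same as for Mki67. The GnRH difference was 0.11 (95% interval -0.32 to 0.54, adjusted p = 0.88) in females, where it was -0.044 without animal 6, and 0.082 (95% interval -0.30 to 0.46, adjusted p = 0.999) in males, where it was 0.21 without animal 14.

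**Figure D2:**
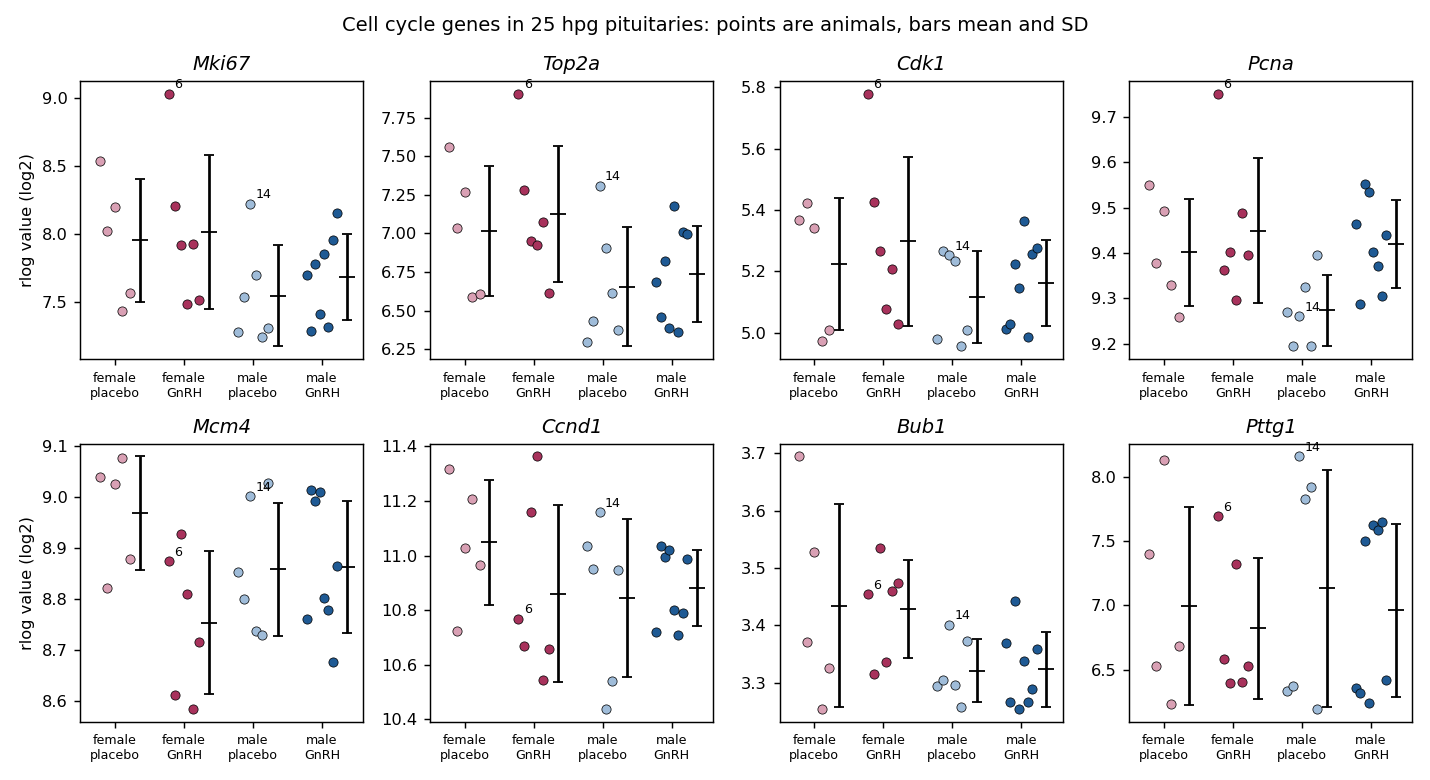
Values of 8 members in each animal, in rlog units on the log2 scale, by sex and treatment, with 1 point per animal and bars for the mean and SD beside the points (5, 6, 6 and 8 animals). Animals 6 and 14 are numbered; for Mki67 animal 6 lies at 9.04, above all others, and the treated and placebo animals overlap in each panel. Each panel has its own vertical scale, which does not start at 0.

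None of the kinases and checkpoint proteins of the kinetochore and spindle passed either. Bub1, the checkpoint kinase with the lowest level of the members, stood at 3.69, 3.37, 3.53, 3.25 and 3.33 in placebo females, at 3.31, 3.46 and 3.54 (lowest, median and highest) in GnRH females, at 3.26, 3.30 and 3.40 in placebo males and at 3.25, 3.31 and 3.44 in GnRH males. Bub1b, its partner in the same checkpoint, stood at 7.24, 6.88, 6.74, 6.74 and 7.27 in placebo females, at 6.72, 7.02 and 7.03 (lowest, median and highest) in GnRH females, at 6.88, 6.94 and 7.28 in placebo males and at 6.73, 7.08 and 7.25 in GnRH males. Animal 14 was the highest for Bub1b, and the lowest was GnRH female 9. The GnRH differences were -0.0053 and 0.0021 for Bub1, and -0.047 and 0.065 for Bub1b, in females and males.

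Aurora kinase A, which acts at the spindle poles, is encoded by Aurka, which stood at 5.25, 5.26, 5.31, 5.03 and 5.05 in placebo females, at 4.92, 5.15 and 5.22 (lowest, median and highest) in GnRH females, at 4.91, 5.07 and 5.30 in placebo males and at 5.00, 5.13 and 5.20 in GnRH males. Aurkb, the kinase of the chromosomal passenger complex, stood at 4.62, 4.60, 4.85, 4.37 and 4.40 in placebo females, at 4.43, 4.66 and 5.13 (lowest, median and highest) in GnRH females, at 4.39, 4.44 and 4.74 in placebo males and at 4.38, 4.50 and 4.74 in GnRH males. Birc5 (survivin), which belongs to the same complex, stood at 5.04, 5.14, 5.18, 4.70 and 4.90 in placebo females, at 4.82, 5.03 and 5.61 (lowest, median and highest) in GnRH females, at 4.69, 4.95 and 5.07 in placebo males and at 4.79, 4.95 and 5.19 in GnRH males. Animal 6 had the highest value of Aurkb and Birc5 but not of Aurka, which was highest in placebo female 3. In females the GnRH differences were 0.12 (95% interval -0.079 to 0.32, adjusted p = 0.706) for Aurkb, 0.12 (95% interval -0.091 to 0.33, adjusted p = 0.721) for Birc5 and -0.073 (95% interval -0.21 to 0.066, adjusted p = 0.741) for Aurka. Those of Aurkb and Birc5 were 0.032 and 0.021 without animal 6. In males all 3 lay between 0.023 and 0.038. Plk1, a kinase of mitotic entry and exit, stood at 5.87, 5.83, 6.03, 5.67 and 5.66 in placebo females, at 5.50, 5.74 and 6.06 (lowest, median and highest) in GnRH females, at 5.52, 5.59 and 5.87 in placebo males and at 5.52, 5.65 and 5.84 in GnRH males. Its highest animals were 6 and 3, and its differences were -0.053 in females and 0.033 in males.

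Cdc20 and Ube2c serve the anaphase-promoting complex, which marks cyclin B and securin for destruction. Cdc20 stood at 5.64, 5.61, 5.60, 5.21 and 5.40 in placebo females, at 5.45, 5.55 and 5.93 (lowest, median and highest) in GnRH females, at 5.21, 5.48 and 5.62 in placebo males and at 5.18, 5.49 and 5.73 in GnRH males. Ube2c stood at 5.86, 5.64, 5.79, 5.31 and 5.72 in placebo females, at 5.46, 5.67 and 6.43 (lowest, median and highest) in GnRH females, at 5.33, 5.43 and 5.63 in placebo males and at 5.16, 5.50 and 5.94 in GnRH males. Animal 6 was the highest for both, and the lowest was GnRH male 21. The GnRH difference of Cdc20 was 0.12 (95% interval -0.069 to 0.32, adjusted p = 0.689) in females, with 5 of 6 treated animals above the placebo mean, and 0.0045 in males. That of Ube2c was 0.091 in females and 0.042 in males. Without animal 6 the female differences of Cdc20 and Ube2c were 0.060 and -0.044.

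Kif11, the motor that pushes spindle poles apart, stood at 6.29, 6.14, 5.95, 5.75 and 5.73 in placebo females, at 5.74, 6.00 and 6.80 (lowest, median and highest) in GnRH females, at 5.66, 5.87 and 6.12 in placebo males and at 5.72, 5.86 and 6.06 in GnRH males. Tpx2, which activates Aurora kinase A on the spindle, stood at 6.43, 6.27, 6.23, 6.25 and 6.05 in placebo females, at 5.93, 6.00 and 6.91 (lowest, median and highest) in GnRH females, at 5.92, 6.02 and 6.43 in placebo males and at 5.95, 6.10 and 6.36 in GnRH males. Cenpf, a kinetochore protein, stood at 6.09, 6.13, 6.12, 5.62 and 5.70 in placebo females, at 5.47, 5.89 and 6.48 (lowest, median and highest) in GnRH females, at 5.55, 5.64 and 6.17 in placebo males and at 5.62, 5.72 and 6.20 in GnRH males. All 3 were highest in animal 6. Kif11 had the largest positive difference of the members in females, 0.16 (95% interval -0.13 to 0.45, adjusted p = 0.725), against -0.0089 in males, and without animal 6 it was 0.030. The differences of Tpx2 were -0.064 and 0.041, those of Cenpf -0.025 and 0.03, and those of Cenpe, the kinetochore motor, -0.038 and 0.0093. In females Tpx2 and Cenpf gave -0.21 and -0.14 without animal 6. Cenpe ran from 5.32 to 5.84 over the 25 animals.

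Over the 37 members, most GnRH differences were negative in females and positive in males, all of them small. In females 22 of 37 differences were negative with a median of -0.025, while 49.9% of all rows were negative with a median of 0.0003. Without animal 6, 30 of 37 were negative with a median of -0.067. Leaving out placebo female 1 or 3, or GnRH female 9, turned the median positive (0.015, 0.014 and 0.012), as did array weights (0.0023). In males 9 of 37 were negative with a median of 0.023, and 51.5% of all rows were negative. Without animal 14 these values were 6 of 37 and 0.064, and without GnRH male 25 they were 16 of 37 and 0.0036. The members vary together between animals, so such counts are not counts of independent genes.

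The GnRH effects of the 2 sexes were compared directly. No member passed (0 of 37 by limma, against 0% of all rows), and 1 of 37 had an unadjusted p under 0.05, against 2.76% of all rows. That gene was Mcm4, given above. The next members by p were Mcm7 at 0.12 (95% interval -0.056 to 0.30, adjusted p = 0.999), Ccnd1 at 0.23 (95% interval -0.15 to 0.60, adjusted p = 0.999) and Aurka at 0.11 (95% interval -0.075 to 0.30, adjusted p = 0.999).

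Males had lower values than females for most members, and again no gene passed. The comparison averaged over treatment was added after the data had been seen. In it 32 of 37 members were lower in males with a median of -0.089, while 50.5% of all rows were lower with a median of -0.0005. By limma 0 of 37 passed, against 0.0836% of all rows, and 8 of 37 had an unadjusted p under 0.05, against 5.13% of all rows. Of those 8, 7 encode mitotic proteins: Bub1, Top2a, Ube2c, Plk1, Mki67, Ccnb1 and Ccna2. The eighth was Ccne2. Here too the members vary together between animals, so the counts for sex here and below are not counts of independent genes.

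Bub1 had the smallest p, at -0.11 (SE 0.037, 95% interval -0.19 to -0.033, adjusted p = 0.721). Ccne2 gave -0.18 (95% interval -0.31 to -0.047, adjusted p = 0.805), Ube2c -0.23 (95% interval -0.41 to -0.036, adjusted p = 0.921) and Plk1 -0.14 (95% interval -0.26 to -0.02, adjusted p = 0.925). The largest differences were those of Top2a, -0.37 (SE 0.14, 95% interval -0.66 to -0.087, adjusted p = 0.853), and Mki67, -0.37 (SE 0.16, 95% interval -0.69 to -0.053, adjusted p = 0.925), which are folds of 0.772 and 0.773 on the rlog scale. For Mki67 the group means were 7.95 ± 0.45 (SD, n = 5) in placebo females, 8.01 ± 0.57 (n = 6) in GnRH females, 7.54 ± 0.38 (n = 6) in placebo males and 7.68 ± 0.32 (n = 8) in GnRH males. The difference between the sexes was thus smaller than the SD within 3 of the 4 groups. Ccnb1 and Ccna2 gave -0.13 and -0.14. The 5 members that were higher in males were Mcm5, Mcm6, Rrm1, Bub1b and Pttg1, by between 0.0057 and 0.14. The median over the 37 members was -0.058 without animal 6, with 29 lower in males.

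Within placebo animals 33 of 37 members were lower in males with a median of -0.11, 0 of 37 passed (0.047% of all rows), and 1 of 37 had an unadjusted p under 0.05 (3.07% of all rows). That gene was Plk1, at -0.18 (95% interval -0.36 to -0.0045, adjusted p = 0.999), followed by Bub1 at -0.11 (95% interval -0.23 to 0.00069, adjusted p = 0.999), Ccne2 at -0.18 and Pcna at -0.13. Without animal 14 all 37 were lower, with a median of -0.13, and without placebo female 1 it was 32 of 37, with a median of -0.064. The difference of Bub1 was -0.048 without placebo female 1. Within GnRH animals 25 of 37 were lower with a median of -0.096, 0 of 37 passed (0.0522%), and 4 of 37 had an unadjusted p under 0.05 (5.53%). Those 4 were Bub1 at -0.11 (95% interval -0.21 to -0.0043, adjusted p = 0.878), Kif11 at -0.27 (95% interval -0.53 to -0.011, adjusted p = 0.878), Ccne2 at -0.18 (95% interval -0.36 to -0.005, adjusted p = 0.886) and Top2a at -0.39 (95% interval -0.77 to -0.0069, adjusted p = 0.89). Without animal 6 the median within GnRH animals was -0.024, with 22 of 37 lower, and the differences of Kif11 and Top2a were -0.14 and -0.23.

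Lower values in males were found in both mitotic and other members within placebo animals and on average over treatment. Within GnRH animals they were found for most mitotic genes but not for most of the other members. Within placebo animals 17 of 19 mitotic genes (median -0.11) and 16 of the other 18 members (median -0.082) were lower. Within GnRH animals these were 16 of 19 (median -0.14) and 9 of 18 (median -0.0093), and without animal 6, 15 of 19 (median -0.046) and 7 of 18 (median 0.0073). Averaged over treatment, 17 of 19 mitotic genes were lower in males with a median of -0.12, and without animals 6 and 14 the count was again 17 of 19 with a median of -0.11. Of the other 18 members, 15 were lower with a median of -0.059, and 14 with a median of -0.042 without those animals. Scaling the libraries by their medians or by quantiles left the count at 32 of 37 in both cases.

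The members' variation between animals of a group was shared to different degrees. As deviations from the group means over the 25 animals, the 171 pairs of 19 mitotic genes had a median correlation of 0.622, with 98.2% of pairs positive. For all 666 pairs of members the median was 0.365, for the 55 pairs of replication genes 0.317, for the 10 pairs of G1 cyclins -0.036, and for all pairs of rows tested -0.001. The correlations are descriptions over animals that share library preparation and scaling.

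**Figure D3:**
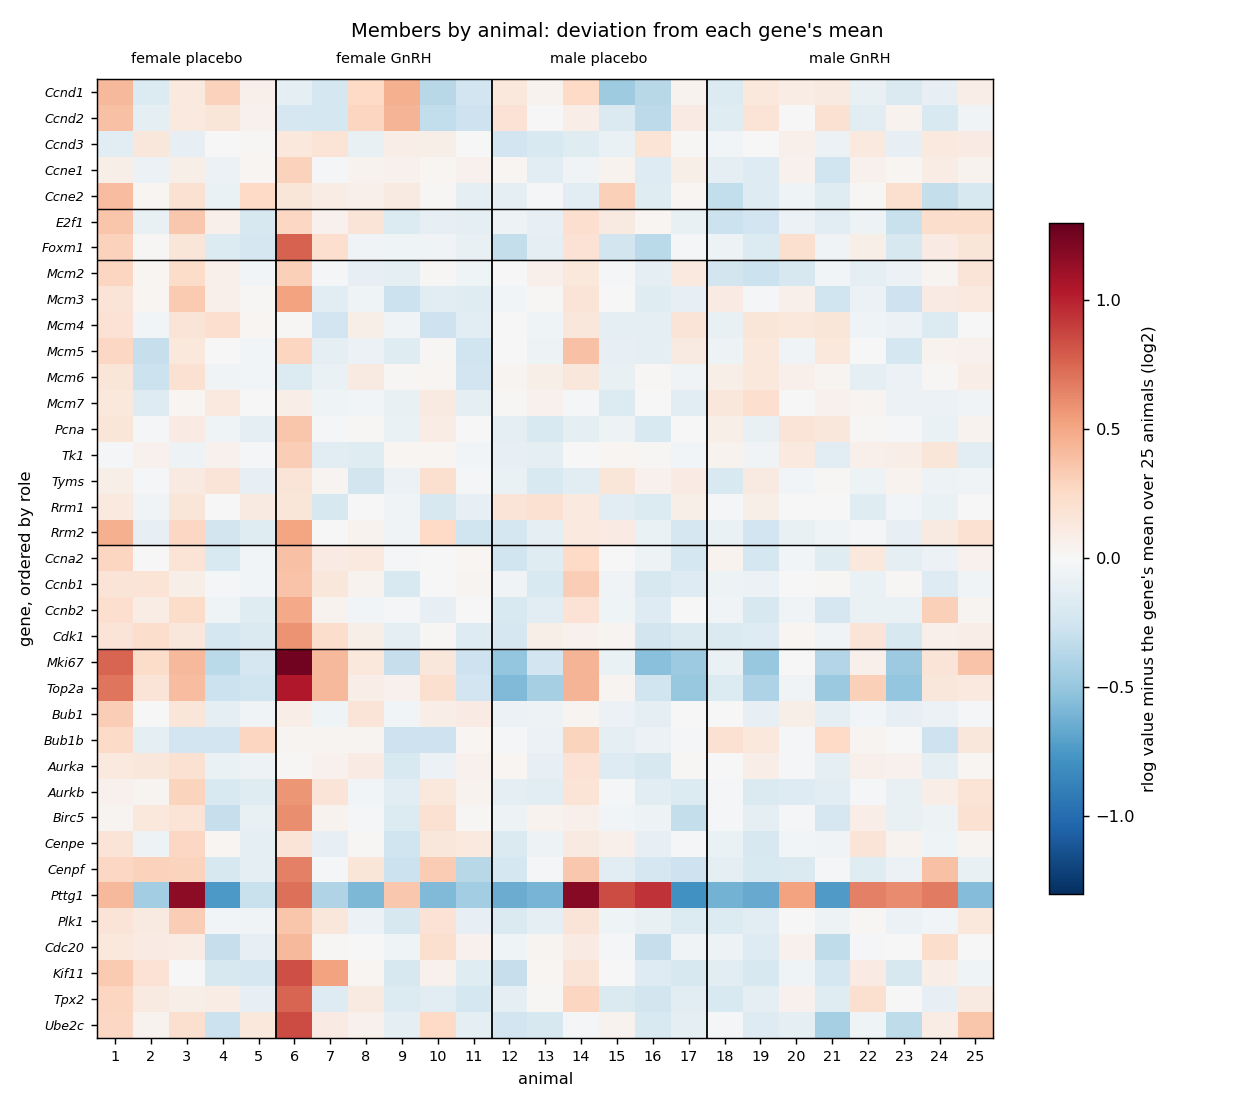
Each of the 37 members (rows, ordered by role, black lines between roles) in each of the 25 animals (columns, by group), as the rlog value minus the gene's mean over all animals, on the log2 scale. Animal 6 is above the mean for most mitotic genes, and the Pttg1 row changes widely from animal to animal.

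Most mitotic genes varied with Mki67. Its correlation was 0.938 with Top2a (Spearman's rho 0.91), 0.907 with Foxm1, 0.898 with Kif11 and 0.892 with Cdk1. Without animals 6 and 14, the 2 farthest from the median, these values were 0.905, 0.837, 0.847 and 0.86. The group means still included those 2 animals, so correlations that leave them out are not free of them. In all, 18 of the 36 other members had a correlation of at least 0.7 with Mki67, and 11 of 36 without those 2 animals. Of the replication genes, Rrm2 (0.861), Mcm3 (0.806) and Mcm2 (0.723) were close to Mki67 (0.823, 0.671 and 0.602 without those 2 animals), while Mcm4 (0.062), Mcm7 (0.074), Tyms (0.035) and Mcm6 (0.125) were not. The 2 subunits of ribonucleotide reductase differed in this respect, with 0.861 for Rrm2 and 0.255 for Rrm1. Outside the members, the genes most like Mki67 were Pbk (0.897), Spc25 (0.886), Aspm (0.884), Iqgap3 (0.879) and Ckap2l (0.868).

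The mean of the 19 mitotic genes ranged from 5.45 in placebo male 12 to 6.20 in GnRH female 6. It stood at 5.94, 5.74, 5.90, 5.47 and 5.57 in placebo females, at 5.54, 5.70 and 6.20 (lowest, median and highest) in GnRH females, at 5.45, 5.54 and 5.92 in placebo males and at 5.47, 5.62 and 5.75 in GnRH males. All 4 groups overlapped, and the GnRH males had the narrowest range. Animals 1, 6 and 14 were above their group mean for 19 of 19 mitotic genes.

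The within-group SD of the mitotic genes was high for their level. For Mki67 it was 0.43, larger than that of 99.2% of rows within 0.5 of its level, whose median SD was 0.14. For Top2a it was 0.39, larger than 98.8% of such rows, and all 19 mitotic genes had an SD above the median of rows at their own level. Of the other 18 members 11 did, with Rrm2 (98.3%) and Ccnd1 (96.5%) the highest and Tk1 (22.2%) and Mcm7 (22.9%) the lowest.

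The D-type cyclins Ccnd1 and Ccnd2 varied along another axis. Ccnd2 and Ccnd1 had correlations of -0.20 and -0.026 with Mki67, but of 0.938 and 0.884 with the first principal component of all rows, which held 25.6% of the variance within groups. The median size of that correlation over all rows was 0.367, and over the 19 mitotic genes 0.325. The largest among the other members were positive for Mcm4 (0.692) and Rrm1 (0.587), and negative for the third D-type cyclin Ccnd3 (-0.557) and for Birc5 (-0.501). Among the marker lists, that component went with somatotropes (-0.669) and with stem and folliculostellate cells (0.538), and their part in the cyclins' values was not tested.

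**Figure D4:**
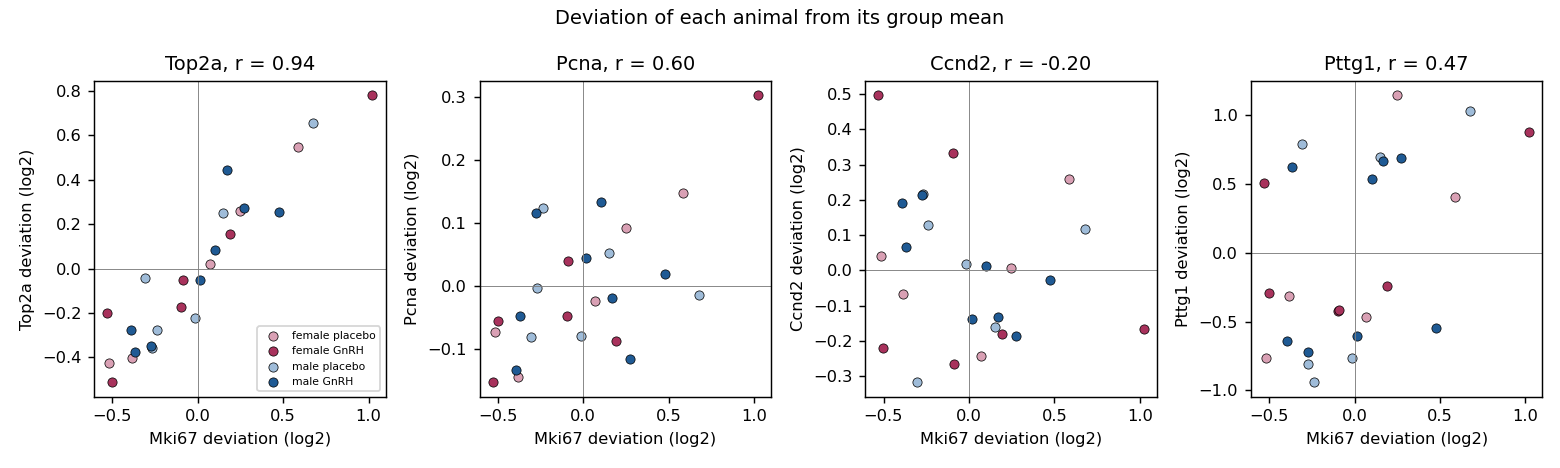
Deviation of each animal from its group mean for Mki67 (horizontal axis) and for Top2a, Pcna, Ccnd2 and Pttg1 (vertical axes), in rlog units on the log2 scale, with 1 point per animal colored by group and r over 25 animals. Top2a follows Mki67 closely (0.94), Pcna less so (0.60), Ccnd2 not (-0.20), and Pttg1 (0.47) falls into an upper and a lower set.

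Pttg1 (at chr11:43420250-43426251 in GRCm38) encodes securin, an inhibitor that keeps sister chromatids from separating before anaphase. It is described in full because of its spread, a choice made after its values had been seen. It stood at 7.40, 6.52, 8.14, 6.23 and 6.68 in placebo females, at 6.40, 6.55 and 7.69 (lowest, median and highest) in GnRH females, at 6.19, 7.10 and 8.16 in placebo males and at 6.24, 6.96 and 7.65 in GnRH males. No animal lay between 6.68 and 7.32: 14 animals fell below that gap and 11 above it. The animals above it were 2 of 5 placebo females, 2 of 6 GnRH females, 3 of 6 placebo males and 4 of 8 GnRH males, so the split crossed sex and treatment. Animals 6, 1, 14 and 3, which had the highest means of the mitotic genes, all lay above the gap. So did animals 9 and 16, with lower mitotic means of 5.541 and 5.536. The gap was 32.5% of the gene's range, and the next widest among the members, splitting at least 5 animals from the rest, was 23.3% for Bub1b.

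Its GnRH difference was -0.17 (95% interval -0.98 to 0.63, adjusted p = 0.906) in females and -0.17 (95% interval -0.89 to 0.55, adjusted p = 0.999) in males, the widest intervals of the members. The within-group SD of 0.74 was larger than that of 99.8% of rows at a like level. Its correlation with Mki67 was 0.472, and 0.305 without animals 6 and 14, which stayed in the group means. Leaving out predicted genes, Riken clones and pseudogenes, the genes most like it were Wwc1 (-0.867), Gdpd3 (-0.86), Rpl29 (0.858) and Lmbr1 (-0.856), none of them in the cell cycle lists used here. Wwc1 lies on chromosome 11, as Pttg1 does, and Gdpd3, Rpl29 and Lmbr1 lie on chromosomes 7, 9 and 5. Lower in the order, Ublcp1 (0.845), Atp2a3 (-0.842) and Gemin5 (-0.839) also lie on chromosome 11, while Ucma, Adgra3 and Snhg11 lie on chromosomes 2, 5 and 2. A correlation of at least 0.7 in size was found for 2 of 111 genes within 10 Mb of Pttg1 (1.8%) and for 161 of 17142 genes elsewhere (0.939%). What sets the 2 ranges was not tested.

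**Figure D5:**
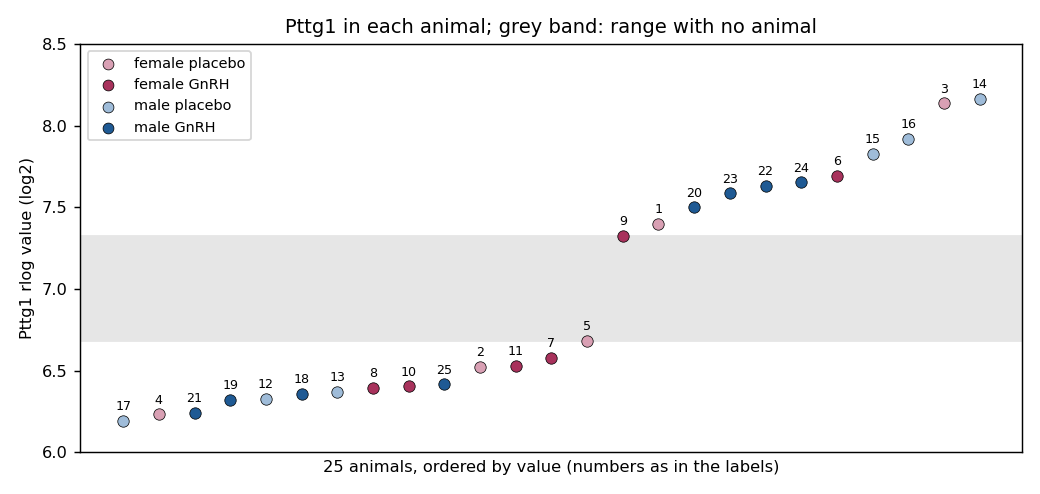
Pttg1 rlog values (log2 scale) of the 25 animals in ascending order, colored by sex and treatment and numbered as in the labels. A grey band marks the range from 6.68 to 7.32, which holds no animal, and each group has animals on both sides of it. The vertical axis does not start at 0.

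Further cell cycle genes outside the 37 were read from 4 lists. Of 30 other genes of replication licensing, fork and histone supply, 0 passed in any comparison by limma. For GnRH, 2 had an unadjusted p under 0.05 in females and 1 in males (9.57% and 6.42% of all rows), and the median differences were 0.014 and -0.017. The smallest p belonged to Pole2 (0.079) and Mcm10 (0.16) in females and Tipin (-0.18) in males. Of 47 tested genes of spindle, kinetochore and cytokinesis, 0 passed, 2 had an unadjusted p under 0.05 in females (Ckap5 at -0.18 and Cenpk at 0.15) and 0 in males, against the same shares of all rows. This list was lower in males for 43 of 47 genes averaged over treatment, with a median of -0.081 and 11 unadjusted p under 0.05 (50.5% of all rows lower, 5.13% with such a p), led by Kif23 at -0.22 (adjusted p = 0.688), named after its value had been seen. The replication list was lower in males for 20 of 30 genes, with a median of -0.038 and 3 unadjusted p under 0.05. The mean of the spindle list varied with that of the 19 mitotic genes between animals (r of 0.967 over 25 animals). It was 0.952 without animal 6, which stayed in its group mean. The spindle list's counts for sex are thus not independent of those of the mitotic genes.

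Of 10 tested CDK inhibitors and pocket proteins, which hold the cycle back, 0 passed. For GnRH, 1 of 10 had an unadjusted p under 0.05 by limma in females and 2 of 10 in males (9.57% and 6.42% of all rows). Cdkn1a, the gene of the inhibitor p21, had the largest GnRH differences of this list, 0.52 in females (SE 0.14, adjusted p = 0.201) and 0.48 in males (SE 0.13, adjusted p = 0.117). Cdkn1c gave -0.25 in males (adjusted p = 0.65) and Cdkn1b -0.15 in females (adjusted p = 0.525). Of 20 G1 kinases, E2F family and DREAM complex genes, 0 passed. For GnRH, 2 of 20 had such an unadjusted p in females and 1 of 20 in males, against the same shares of all rows. Myc had differences of 0.27 in females and 0.24 in males (adjusted p = 0.477 and 0.646), and E2f6 of -0.15 in females (adjusted p = 0.289). Averaged over treatment this list was lower in males for 15 of 20 genes, with a median of -0.026 and 4 unadjusted p under 0.05 (50.5% of all rows lower, 5.13% with such a p). Males minus females was -0.18 for E2f8 (adjusted p = 0.61), -0.18 for E2f7 (adjusted p = 0.826), -0.13 for Tfdp1 (adjusted p = 0.679) and 0.16 for Tfdp2 (adjusted p = 0.805), the 4 genes with such a p, named after their values had been seen.

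Markers of the cell types of the tissue were set beside these results. Endothelial markers were higher with GnRH for 5 of 5 genes in each sex, with Emcn at 0.27 in males (adjusted p = 0.0416 by limma). Of all rows, 50.1% were higher in females and 48.5% in males. Gonadotrope markers were higher for 4 of 5 genes in each sex, with Gnrhr at 0.73 in males (adjusted p = 0.0171). Macrophage markers were higher for 4 of 4 genes in females and 2 of 4 in males. Those of somatotropes and of blood were each higher for 2 of 3 in females and 3 of 3 in males. The mean of the 5 endothelial markers ranged from 9.79 to 9.98 in placebo females, from 9.90 to 10.18 in GnRH females, from 9.86 to 9.94 in placebo males and from 9.86 to 10.24 in GnRH males. Between animals, the mitotic mean had a correlation of 0.198 with the endothelial list, 0.046 with the gonadotrope list, -0.040 with the stem and folliculostellate list, 0.401 with the posterior lobe list, and 0.456 with pericytes and fibroblasts, the highest of the 12 lists. Without animal 6, which stayed in its group mean, the values were 0.076, -0.066, -0.22, 0.305 and 0.281, and the posterior lobe list was then the highest. Animal 6 was the highest GnRH female for the lists of stem and folliculostellate cells, posterior lobe, endothelium, pericytes and fibroblasts, and lymphocytes, at 8.14, 6.81, 10.18, 10.87 and 5.28. Animal 14 was the highest placebo male for those of lactotropes, endothelium, and pericytes and fibroblasts, at 14.14, 9.94 and 10.66. All 6 stem and folliculostellate markers were lower in males averaged over treatment, with a median of -0.054 and no p under 0.05 (50.5% of all rows lower). Within GnRH animals 3 of the 6 were lower. Averaged over treatment, all markers of somatotropes (3, median -0.099), thyrotropes (2, -0.032), macrophages (4, -0.064) and lymphocytes (3, -0.010) were lower in males too. All 3 blood markers were higher. The part of these cell types in the members' values was not tested.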

How the data were processed

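RNA of 25 mouse pituitaries was sequenced, and 1 value per gene and library was deposited by the authors as regularized-log (rlog) values on the log2 scale, per the file's contents and name. The submitters' processing notes name bcl2fastq, STAR, featureCounts and the mm10 build. For tool versions, strand setting and reads that map to several places, the entry is: not given in the sources used here. Without read counts, library depth could not be read from the table. The rlog step shrinks genes with few reads, so their differences are understated. The sources name no batch or date, and 0 value columns were left unmapped.

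Groups came from the labels. The labels give 8 male GnRH animals while the design text gives fewer replicates as its upper limit, and all 8 were used. Rows with a mean of at least 3 were fitted in limma 3.58.1 (R 4.3.3) with 1 mean per group, a trended variance prior and 21 residual degrees of freedom, and p-values were adjusted over 19141 rows. The code was tested on simulated data. The labels treat each library as a separate animal. The members and lists were chosen with earlier results of these data known. Values per sample were given for the 8 members with the smallest p in each GnRH contrast, the 4 smallest in each other one, the 3 highest and 3 lowest in mean, Mki67, Top2a, Pcna and Ccnd1, and members with an outlying animal. For each neighbour list, counts and up to 4 genes by smallest p for GnRH were given. Promoter and motif searches used RefSeq sequence, and correlations used deviations from group means. Alternatives varied the filter, scaling, variance prior, weights, groups fitted and animals.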

Additional observations from a re-analysis of the deposited data

Results flagged for a closer look

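In 12 of 148 combinations of member and group, 1 animal lay far from the rest of its group by Dixon's criterion, which chance meets in about 1 in 20. GnRH female 6 was the highest of its group in 7 of them: Mcm2 at 8.887, Mcm3 at 7.524, Foxm1 at 7.409, Tpx2 at 6.907, Ccna2 at 6.852, Ccne1 at 6.261 and Ccnb2 at 5.224. Placebo male 14 was the highest for Bub1b at 7.284, Plk1 at 5.87 and Ccnb1 at 4.598. Placebo male 17 was the lowest for Birc5 at 4.692, and GnRH male 24 was the highest for Cenpf at 6.203. The members vary together, so these are not independent events.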

How the results depend on the processing

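No member passed an adjusted p of 0.05 in any comparison under any alternative run. The number of all genes called for GnRH in females was 62 with array weights against 19, and 4 without animals 6 and 14, an alternative added after seeing the data, with 4 to 67 when leaving out 1 animal at a time. In males it was 239 with array weights against 95, and 44 without animals 6 and 14, with 46 to 153 when leaving out 1 animal. Leaving out 1 animal gave 8 to 17 genes for sex within GnRH (10 with all) and 12 to 27 for sex averaged over treatment (16 with all). Without animals 6 and 14 the GnRH difference of 8 members in females took the other sign (Foxm1 -0.0201, Pcna -0.012, Tk1 -0.0573, Rrm2 -0.0426, Cdk1 -0.0218, Mki67 -0.143, Top2a -0.044 and Ube2c -0.0438), as did that of 5 in males (Ccne1 -0.00281, Mcm3 0.0305, Mcm5 0.0373, Pttg1 0.0343 and Kif11 0.0397). With array weights this held for Ccnb1 0.0546, Ccnb2 0.0482, Bub1 0.00226 and Cenpf 0.0244 in females and for Ccnd1 -0.0265, Ccnd2 -0.0358, Mcm6 -0.0029, Tyms 0.0209, Cenpf -0.0236 and Cdc20 -0.0227 in males, and with quantile normalization for Ccnd2 -0.0284 and Bub1 -0.0026 in males. Leaving out 1 animal at a time, 17 members in females had differences of both signs: Foxm1 -0.0201 to 0.18, Pcna -0.012 to 0.0855, Tk1 -0.0573 to 0.0374, Tyms -0.0701 to 0.0194, Rrm2 -0.0426 to 0.146, Ccnb1 -0.0667 to 0.0458, Ccnb2 -0.0906 to 0.0371, Cdk1 -0.0218 to 0.128, Mki67 -0.143 to 0.208, Top2a -0.044 to 0.249, Bub1 -0.0505 to 0.0598, Bub1b -0.104 to 0.0263, Cenpe -0.0819 to 0.0159, Cenpf -0.139 to 0.0626, Pttg1 -0.365 to 0.111, Plk1 -0.114 to 0.00123 and Ube2c -0.0438 to 0.151. In males 20 did: Ccnd1 -0.0439 to 0.1005, Ccnd2 -0.0552 to 0.0515, Ccne1 -0.0259 to 0.0322, Mcm3 -0.0334 to 0.0305, Mcm4 -0.0217 to 0.038, Mcm5 -0.0634 to 0.0373, Mcm6 -0.0173 to 0.0326, Tyms -0.0469 to 0.0243, Ccna2 -0.00989 to 0.093, Ccnb1 -0.0222 to 0.082, Ccnb2 -0.0314 to 0.0687, Bub1 -0.015 to 0.018, Aurkb -0.00913 to 0.073, Birc5 -0.0244 to 0.0513, Cenpe -0.0219 to 0.0397, Cenpf -0.0327 to 0.117, Pttg1 -0.36 to 0.0343, Cdc20 -0.0459 to 0.0464, Kif11 -0.0524 to 0.0397 and Ube2c -0.021 to 0.0915. The cause was not tested. Averaging several rows of a symbol was not run, since no member had more than 1 row. No paired analysis was possible because the animals are numbered 1 to 25 and no number is shared between groups. With no counts, the share of each gene's spread that comes from depth is not known.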
